A study of Rattus norvegicus with 2 samples.

Results

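The Krueppel-like factor genes *Klf2*, *Klf3*, *Klf4*, *Klf6*, *Klf9*, *Klf10* and *Klf15*, 7 of the 25399 genes in the deposited gene list, were followed across the cell clusters of cultured neonatal rat heart cells. They were chosen by symbol, and all 7 symbols occurred once in the list. Sprague-Dawley rats of 1 to 3 days of age, male and female pooled, gave heart cells that were enriched on a Percoll gradient for intrinsic cardiac adrenergic (ICA) cells, cultured, and treated for 2 h with 1 µg/mL LPS, the bacterial endotoxin, or with saline (control). Each treatment gave 1 single-cell library of the 10X Genomics 3′ v2 kit. No genotype or other agent separated the libraries.

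Krueppel-like factors are transcription factors that bind CACCC boxes and related GC-rich sites through zinc fingers at their carboxyl end, so members can bind the same sites and one another's promoters. *Klf2*, *Klf4* and *Klf6* code for factors that mainly activate genes. *Klf3*, *Klf9* and *Klf10* code for factors that mainly repress, the first through the corepressor CtBP and the others through Sin3a. KLF2 and KLF4 hold down inflammation in endothelium, KLF4 also shapes monocytes and macrophages, and KLF9 and KLF15 are known targets of glucocorticoid hormone.

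Promoter windows of RefSeq on the GRCr8 assembly were used for 5 of the members, all but *Klf2* and *Klf10*, and the 250 bases before the start are shown for genes that differed in opposite directions between the libraries. *Klf9* was lower and *Klf6* higher in the macrophages and in endothelial cluster 4 of the LPS library, and their starts lie at the outer end of the RefSeq gene. The *Klf9* level of LPS macrophages, from 18 UMIs, is not told apart from background RNA of fibroblasts, as given below. Capitals mark matches, on either strand, to CACCC (the box of the family), GGGCGG (the GC box of SP factors), TGACG (the core of the CREB site), TGANTCA (the AP-1 site), CACGTG (the E-box of the clock factors), TGTTCT (part of the glucocorticoid receptor site) and CCAAT (the box of NF-Y), and to the motifs known as κB, MEF2 and SRE. The *Klf9* window is chr1:230126396-230126645 on the plus strand, and the *Klf6* window is chr17:69458479-69458728 on the minus strand.
Klf9: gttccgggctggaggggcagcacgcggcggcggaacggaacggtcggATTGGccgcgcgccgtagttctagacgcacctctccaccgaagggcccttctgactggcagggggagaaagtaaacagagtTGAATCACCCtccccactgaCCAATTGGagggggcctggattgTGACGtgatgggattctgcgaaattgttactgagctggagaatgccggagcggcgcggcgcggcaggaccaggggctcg
Klf6: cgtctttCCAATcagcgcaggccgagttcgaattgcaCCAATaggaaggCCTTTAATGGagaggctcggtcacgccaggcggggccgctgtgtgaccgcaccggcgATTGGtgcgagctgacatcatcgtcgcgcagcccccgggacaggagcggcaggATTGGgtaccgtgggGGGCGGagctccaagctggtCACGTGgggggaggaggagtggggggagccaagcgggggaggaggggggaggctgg

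In the *Klf9* window the letters CACCC, the box that the family binds, occurred 1 time, 117 bases before the start, and shared bases with a TGANTCA match, the AP-1 letters. Of the 33469 windows of all genes, 49.2% held CACCC and 6.34% held TGANTCA. The *Klf9* window also held 1 TGACG match (18.2% of all windows) and 3 CCAAT matches (34.0% of all windows), of which 2 overlapped. The *Klf6* window held no CACCC match, but 4 CCAAT matches, 1 GGGCGG match (30.5% of all windows), 1 CACGTG match (5.59%) and 1 SRE match (1.497%). The starts of the other members' windows do not lie at the outer end of the RefSeq gene, and only short stretches are shown. *Klf3*, the gene lower in every cluster of the LPS library, had 4 CACCC matches, 2 of them in the first stretch below (chr14:43850864-43850893, minus strand). Capitals in each stretch mark 1 match only, so the *Klf3* match 42 bases before the start stands in small letters. *Klf15*, the member with the highest LPS to control ratio in each fibroblast cluster, had 2 TGACG matches and a CACGTG match, the last shown in the second stretch (chr4:124522902-124522931, plus strand) and sharing bases with one of the TGACG matches.
Klf3: caactctccatgGGGTGgagccgatgggtg
Klf15: cgcccgcggcgtCACGTGagcggtcggaga

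The *Klf4* window held no match to any of these motifs. None of the 5 windows held κB (6.33% of all windows), MEF2 (2.96%) or TGTTCT (17.5%) letters. A match describes the letters of the window and no binding was measured.

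The control library held 11531 cells with a median of 12479 UMIs (unique molecular identifiers, which count molecules), and the LPS library 12689 cells with a median of 9432. Clusters and cell type names are the authors' own, and 10 of 11 clusters had at least 25 cells in each library and were compared. Clusters 0, 1 and 7 were named fibroblasts, cluster 3 ICA cells and cardiomyocytes, clusters 4 and 5 endothelial cells and cluster 6 macrophages. *Top2a* was among the leading genes of cluster 1 and *Mx1* of cluster 7. The authors left clusters 2, 8 and 9 unnamed. Cluster 2 is called mural-like here from *Rgs5*, *Kcnj8* and *Abcc9*, cluster 8 mesothelial-like from *Upk1b* and *Msln*, and cluster 9, led by mitochondrial genes and *Myh6*, stays unnamed. Both libraries are labelled ICA cells, yet cluster 0 held 57.2% of the control library and 55.4% of the LPS library. The adrenergic markers summed highest in cluster 3, to 75.2 CPM (UMIs per 1000000 UMIs of the cluster) in control and 82.1 CPM in LPS cells, but *Th*, which codes for tyrosine hydroxylase, had no UMI there in either library. The libraries shared 194 barcodes, 76 of them in the same cluster.

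The level of a gene is its summed UMIs per 1000000 UMIs of the cluster (CPM). Since 3′ counting ties the count to each gene's 3′ end, levels are compared between clusters and libraries but not between genes. With 1 library per treatment no test was made. The 95% intervals are exact (Poisson for levels, conditional for ratios, Clopper-Pearson for shares) and cover counting error only, so a difference between libraries cannot be told apart from a difference in their handling. "Above 1" or "below 1" is written of a ratio whose interval leaves out 1.

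**Figure D1:**
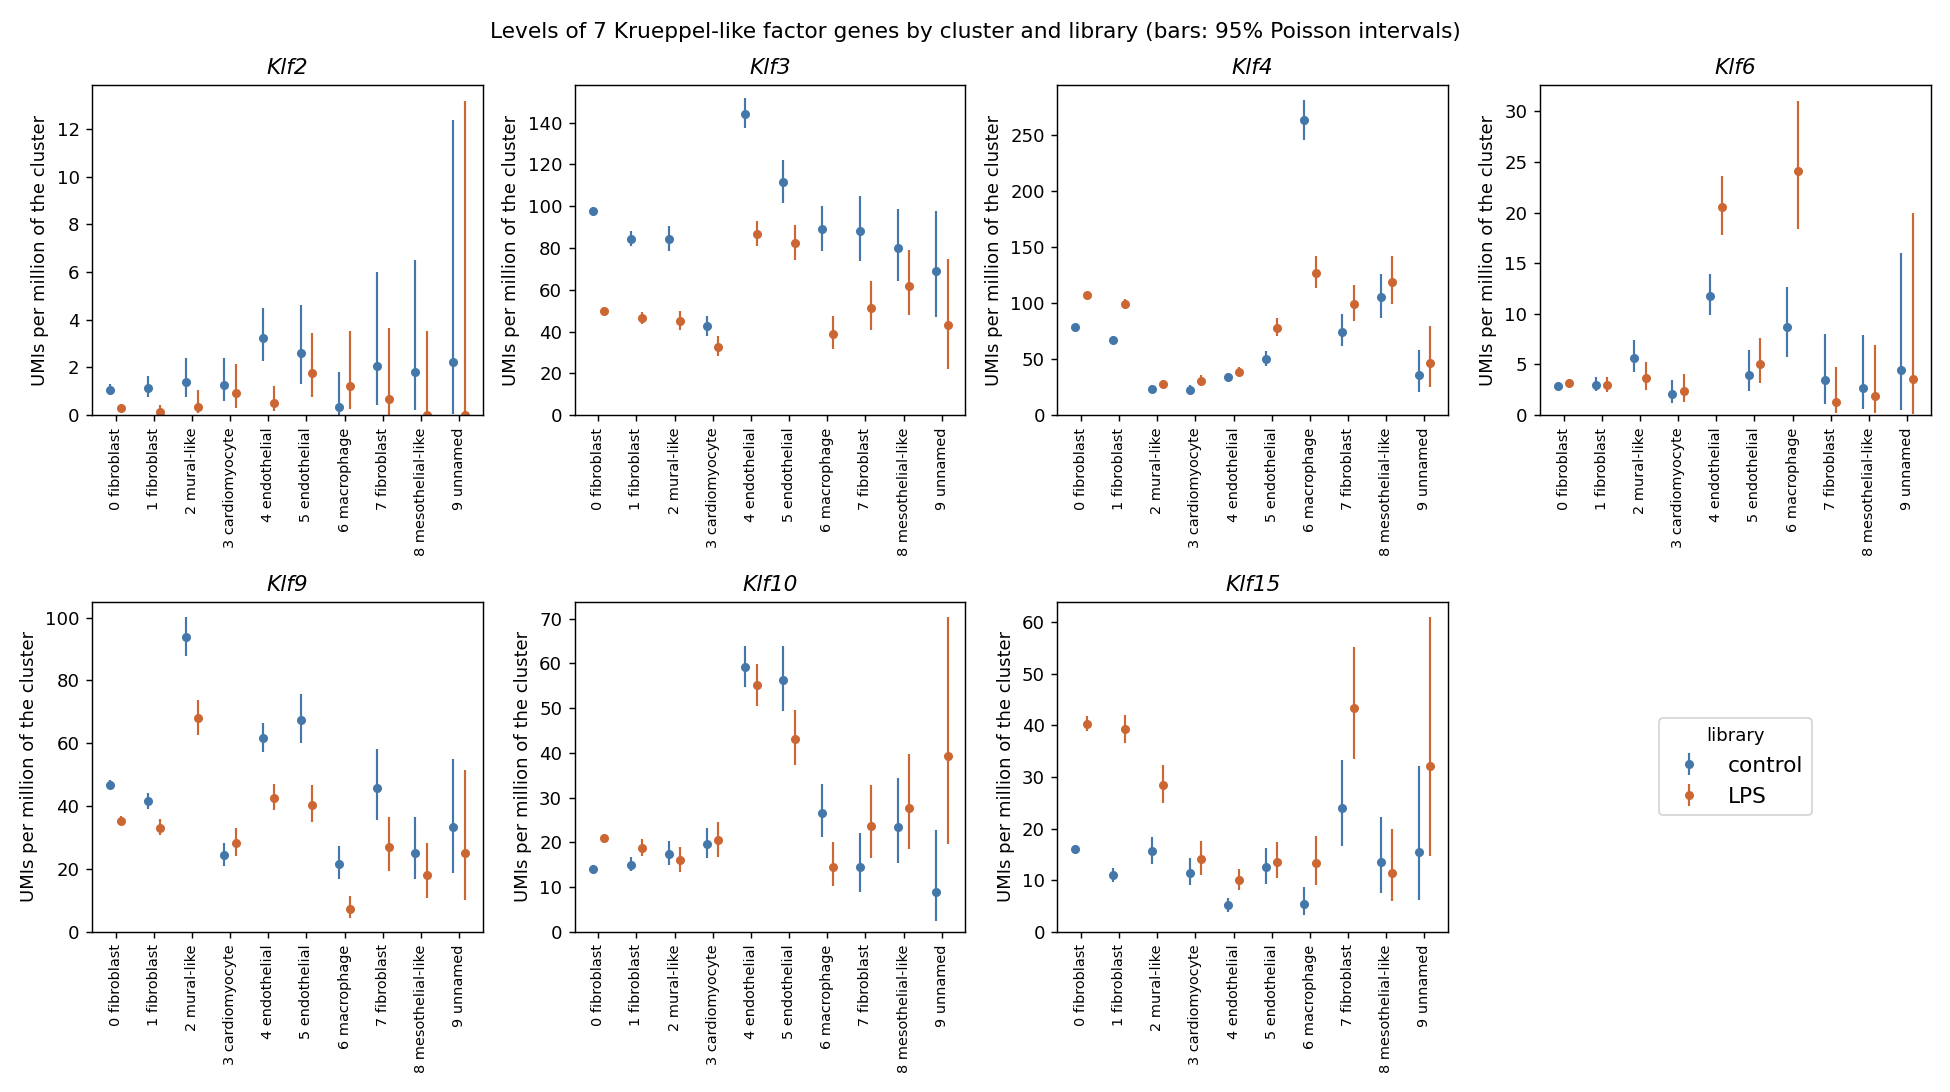
Levels of the 7 genes (vertical axes, CPM of the cluster, linear from 0) in 10 clusters (horizontal axes) of the control (blue) and LPS (orange) libraries, 1 library each, with 95% Poisson intervals. *Klf3* is lower in the LPS library in all 10 clusters, *Klf4* stands highest in control macrophages at 263 CPM, and *Klf15* is higher in the LPS library in the 3 fibroblast clusters.

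Among the activators, *Klf4*, known in the heart for keeping endothelium and smooth muscle quiescent, differed in direction between cell types. In the macrophages of cluster 6 its level was 263 CPM in the control library and 127 CPM in the LPS library, from 820 and 316 UMIs. That is a ratio of 0.483 (0.423 to 0.550). In the fibroblasts of cluster 0 the level was 78.6 CPM in control and 108 CPM in LPS cells, a ratio of 1.37 (1.33 to 1.42). The direction was thus opposite in the 2 cell types, and the macrophage ratio divided by the fibroblast ratio was 0.352 (0.308 to 0.402). *Klf4* ratios above 1 were also found in fibroblast clusters 1 (1.47, 1.38 to 1.57) and 7 (1.33, 1.03 to 1.72) and in endothelial cluster 5 (50.1 against 78.2 CPM, a ratio of 1.56, 1.31 to 1.86). In endothelial cluster 4 the level was 34.2 CPM in control and 38.4 CPM in LPS cells, and the interval of the ratio, 0.970 to 1.30, included 1.

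Control macrophages stood clear of the next cluster in *Klf4*, the mesothelial-like cluster 8 at 105 CPM (87.0 to 126). In the LPS library the same leading clusters, at 127 and 119 CPM, had overlapping intervals, so the macrophages no longer stood apart. The shift was also seen in the share of cells. To make depths equal, 3000 UMIs were drawn from every cell that had as many (thinning). After this, 44.8% (38.9 to 50.9) of control and 27.6% (22.5 to 33.1) of LPS macrophages held a *Klf4* UMI, against 4.798% and 4.88% in the mural-like cluster 2. Without thinning, 75.4% and 49.5% of macrophages did, their cells having a median of 8846 and 6900 UMIs. The same share of mural-like cells was 12.9% and 10.6%, with a median of 6854 and 5082 UMIs. The variance of *Klf4* UMIs among thinned macrophages was 1.61 times the mean in control and 1.43 times in LPS cells, where 1 is the value of random sampling. It was 1.14 times for *Klf3* in control macrophages, and the other members had too few UMIs there for this value.

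The 9 fibroblast markers had UMIs in every cluster, and their size outside fibroblasts serves here as the level of background, be it free RNA or mixed droplets, which were not told apart. Summed, they reached 33.3% of their cluster 0 level in control and 27.8% in LPS macrophages, with single genes between 22.7% (*Tcf21* in LPS) and 42.6% (*Pdgfra* in control). *Klf4* in macrophages was at 335% and 118% of its cluster 0 level, above both. In cluster 3 it was at 28.9% and 28.4%, where the markers were at 32.6% and 32.0%, and in the mural-like cluster at 29.6% and 25.4%, with the markers at 47.1% and 39.3%. Single markers in the mural-like cluster ran from 24.1% (*Dcn*) to 76.9% (*Col3a1*) in control and from 19.0% (*Dcn*) to 77.7% (*Col1a2*) in LPS cells. *Klf4* lay among them, and in those 2 clusters it is not told apart from background. Its cluster 3 ratio of 1.35 (1.08 to 1.68) is read as no measure of cardiomyocytes or ICA cells. Macrophage markers, 10 of 10 with a UMI in both libraries, summed to 4864 CPM in control and 5452 CPM in LPS macrophages.

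*Klf6*, an activator that responds early to injury and is known to aid NF-κB target genes, was higher in LPS macrophages and in endothelial cluster 4. In macrophages it was at 8.67 CPM in the control and 24.1 CPM in the LPS library, 27 and 60 UMIs, a ratio of 2.78 (1.74 to 4.56). Endothelial cluster 4 had 11.8 CPM in control and 20.5 CPM in LPS cells, a ratio of 1.74 (1.39 to 2.19). Those were the leading clusters in either library, and in the LPS library both stood apart from the next one, endothelial cluster 5, at 5.05 CPM (3.20 to 7.58). Fibroblast cluster 0 had 2.83 and 3.13 CPM, and its ratio of 1.11 (0.923 to 1.33) included 1. The ratio of ratios against cluster 0 was 2.51 (1.54 to 4.10) for macrophages and 1.58 (1.19 to 2.09) for cluster 4. Counts were low throughout. In macrophages of 4000 to 8000, 8000 to 16000 and 16000 to 32000 UMIs the ratio was 3.88 (1.60 to 11.3), 2.72 (1.22 to 6.51) and 0.982 (0.268 to 3.07). Thinned, 3.56% of control and 6.55% of LPS macrophages held a *Klf6* UMI, and the interval of the difference, -0.867 to 6.94 percentage points, included 0. After thinning, 3.46% (2.25 to 5.06) of control and 6.03% (4.48 to 7.92) of LPS cells of cluster 4 held a *Klf6* UMI, against 0.864% and 0.883% in cluster 0. Unthinned, the shares of cluster 4 were 15.1% and 20.05%, with a median of 12499 and 9972 UMIs, and those of cluster 0 were 3.79% and 3.20%, with a median of 12968 and 9822 UMIs.

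*Klf2*, the flow-induced factor of endothelium, was close to the limit of detection, with 199 UMIs in the whole control library and 51 in the LPS library. Endothelial cluster 4 ranked first in the control library at 3.24 CPM (2.27 to 4.48), with an interval that overlapped that of endothelial cluster 5 at 2.59 CPM (1.29 to 4.63). In cluster 4, 36 control UMIs stood against 5 LPS UMIs, a ratio of 0.159 (0.0487 to 0.406). Cluster 0 was the only cluster with at least 50 UMIs, 96 in control and 23 in LPS cells, and its ratio was 0.294 (0.178 to 0.467). Clusters 8 and 9 had no *Klf2* UMI in the LPS library, and the floor of 3 UMIs was not exceeded in the control library either. Over all cells the ratio was 0.307 (0.221 to 0.419).

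The repressor *Klf3*, which recruits CtBP and is expressed in blood, fat and endothelial cells, was lower in the LPS library in all 10 clusters. Of the 9 clusters with at least 50 UMIs, 8 had a ratio below 1, the exception being the mesothelial-like cluster 8 (0.773, 0.553 to 1.08). Fibroblast cluster 0 had 97.7 CPM in control and 49.99 CPM in LPS cells, from 8840 and 3687 UMIs, a ratio of 0.512 (0.492 to 0.532). Endothelial cluster 4, the highest in both libraries, had 144 and 86.8 CPM, a ratio of 0.601 (0.553 to 0.654). Macrophages had 88.9 and 39.0 CPM, a ratio of 0.439 (0.345 to 0.555). The decrease was of unequal size. Relative to cluster 0 the ratio was higher in cluster 3 (1.501 times, 1.24 to 1.81) and cluster 8 (1.51 times, 1.09 to 2.09). It was also higher in endothelial clusters 4 (1.18 times, 1.07 to 1.29) and 5 (1.44 times, 1.25 to 1.66), and that of macrophages included 1 (0.857 times, 0.678 to 1.08). In control cells of cluster 3 *Klf3* was at 43.5% (38.7 to 48.8) of its cluster 0 level. Single fibroblast markers there ran from 18.6% (*Tcf21*) to 46.8% (*Postn*), so this control level is not told apart from background. In LPS cells it was at 65.3% (55.9 to 75.9), with the highest marker at 53.2%. The cluster 3 ratio carries that limit. Endothelial cluster 4 stood apart from cluster 5 in the control library (111.5 CPM in cluster 5) but not in the LPS library (82.4 CPM in cluster 5).

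The thinned share of cells with a *Klf3* UMI was 24.8% (23.7 to 25.8) in control and 13.7% (12.9 to 14.5) in LPS fibroblasts of cluster 0, 11.1 percentage points fewer. It was 33.6% and 19.1% in endothelial cluster 4, and 22.8% and 11.03% in macrophages. The lowest shares were those of cluster 3, at 10.2% and 8.21%. Without thinning, cluster 0 had 69.2% and 38.8%, and cluster 3 26.2% and 16.6%, with a median of 7526 and 5269 UMIs.

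*Klf9*, a repressor that opposes other members at shared sites and follows the circadian and hormonal state, was lower in the LPS library in 7 of the 8 clusters with at least 50 UMIs. It stood highest in the mural-like cluster 2, at 93.8 CPM in control and 68.0 CPM in LPS cells, a ratio of 0.724 (0.651 to 0.806), and cluster 2 stood apart from the next cluster in both libraries. The endothelial clusters 4 and 5 followed, at 61.8 and 67.5 CPM in control and 42.6 and 40.4 CPM in LPS cells, with ratios of 0.690 (0.610 to 0.781) and 0.599 (0.495 to 0.723). Their intervals overlapped each other. Cluster 0 had 46.8 and 35.3 CPM, a ratio of 0.754 (0.718 to 0.792). Cluster 3, with 24.3 and 28.3 CPM, was the exception, with a ratio of 1.16 (0.931 to 1.45) that was 1.54 times (1.24 to 1.93) that of cluster 0. The control level there was 51.9% (44.3 to 60.4) of that of cluster 0. That interval includes the highest single fibroblast marker, *Postn* at 46.8%, so the control level is not told apart from background. The LPS level was 80.1% (67.7 to 94.2), with the highest marker at 53.2%. The cluster 3 ratio of *Klf9* carries that limit. In macrophages *Klf9* had 67 and 18 UMIs, 21.5 and 7.24 CPM, a ratio of 0.337 (0.188 to 0.573). The LPS level was 20.5% (12.1 to 32.5) of that of cluster 0, below the 27.8% of the fibroblast markers, and is not told apart from background. The control level was 45.9% (35.5 to 58.4) of that of cluster 0, above the 33.3% of the summed markers. Its interval includes the highest single marker, *Pdgfra* at 42.6%. The *Klf9* ratio of cluster 7, 0.588 (0.388 to 0.880), changed direction when cells were thinned, with a log2 ratio of 0.58. No interval was made for that value, and the thinned cluster held 312000 control and 432000 LPS UMIs of all genes.

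*Klf10*, the early gene induced by TGF-β that feeds back on Smad signalling, had its highest levels in the endothelial clusters. Clusters 4 and 5 had 59.1 and 56.2 CPM in control cells, with overlapping intervals, and stood apart from the next cluster, the macrophages at 26.6 CPM (21.2 to 33.0). In the LPS library they had 55.1 and 43.1 CPM. Both intervals there overlapped that of cluster 9, at 39.3 CPM (19.6 to 70.4) on 11 UMIs. That of cluster 5 (37.2 to 49.5) also overlapped that of cluster 8, at 27.6 CPM (18.5 to 39.7). Fibroblast cluster 0, at 14.03 CPM in control and 20.9 CPM in LPS cells, had a ratio of 1.49 (1.38 to 1.60), and cluster 1 one of 1.25 (1.08 to 1.45). Endothelial cluster 5 had a ratio of 0.766 (0.631 to 0.929), and macrophages, with 26.6 CPM in control and 14.5 CPM in LPS cells, one of 0.543 (0.357 to 0.813). Relative to cluster 0 those ratios were 0.515 (0.420 to 0.631) and 0.365 (0.245 to 0.544) times as large. Cluster 4 as a whole had a ratio of 0.931 (0.829 to 1.05), while its cells differed by depth. Those of 4000 to 8000 UMIs had 46.6 CPM in control and 83.0 CPM in the LPS library, a ratio of 1.78 (1.27 to 2.52), and those of 16000 to 32000 UMIs had 64.4 and 43.2 CPM, a ratio of 0.670 (0.555 to 0.807). Whether the deeper and shallower cells of this cluster differ in kind was not tested.

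*Klf15*, which in heart restrains hypertrophy and drives amino acid and lipid use, was higher in the LPS library in fibroblasts. Cluster 0 had 15.99 CPM in control and 40.3 CPM in LPS cells, from 1447 and 2974 UMIs, a ratio of 2.52 (2.37 to 2.69). Cluster 1 had 10.99 and 39.2 CPM, a ratio of 3.57 (3.10 to 4.12) and 1.42 times (1.21 to 1.65) that of cluster 0. Cluster 7, the highest in both libraries, had 24.0 and 43.4 CPM, a ratio of 1.81 (1.19 to 2.81), and its intervals overlapped those of cluster 0. The mural-like cluster had 15.6 and 28.5 CPM, a ratio of 1.83 (1.48 to 2.26). The thinned share of cluster 0 cells with a *Klf15* UMI was 4.803% (4.30 to 5.35) in control and 11.1% (10.4 to 11.9) in LPS cells. Macrophages, whose level is not told apart from background below, had 1.42% (0.389 to 3.60) and 3.45% (1.67 to 6.25). Unthinned, the shares were 19.0% and 31.2% in cluster 0 and 6.05% and 8.93% in macrophages. In cluster 1 cells of 4000 to 12000 UMIs, a depth that only 73 control cells had, the log2 ratio was 0.66 against 1.83 for the whole cluster. Its cells of 8000 to 16000 UMIs had a ratio of 3.41 (2.58 to 4.60), and those of 16000 to 32000 UMIs 4.19 (3.50 to 5.04).

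The *Klf15* level of macrophages and of endothelial cluster 4 was close to that of the fibroblast markers in both libraries. Macrophages had 17 control and 33 LPS UMIs, a ratio of 2.43 (1.32 to 4.66). Their level was 34.1% (19.8 to 54.9) of that of cluster 0 in control and 32.9% (22.6 to 46.3) in LPS cells, intervals that include the 33.3% and 27.8% of the fibroblast markers. Endothelial cluster 4, with a ratio of 1.94 (1.39 to 2.75), was at 32.0% (24.1 to 41.8) and 24.7% (19.98 to 30.3), where the markers were at 28.1% and 22.0%. Neither is told apart from background. The level in the mural-like cluster was 97.5% and 70.6% of that of cluster 0, above the 47.1% and 39.3% of the summed markers. Single markers there reached 76.9% (*Col3a1*) in control and 77.7% (*Col1a2*) in LPS cells. Cluster 3 had 11.4 and 14.05 CPM, a ratio of 1.23 (0.887 to 1.70). Its level was 71.6% (56.5 to 89.6) of that of cluster 0 in control cells, above the 32.6% of the markers, and 34.8% (27.4 to 43.7) in LPS cells, where the markers were at 32.0%. Endothelial cluster 5 had 12.5 and 13.6 CPM, a ratio of 1.09 (0.745 to 1.61). Its level was 78.0% (58.1 to 102.6) of that of cluster 0 in control cells, with the markers at 26.4%, and 33.8% (25.8 to 43.4) in LPS cells, with the markers at 20.5%.

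**Figure D2:**
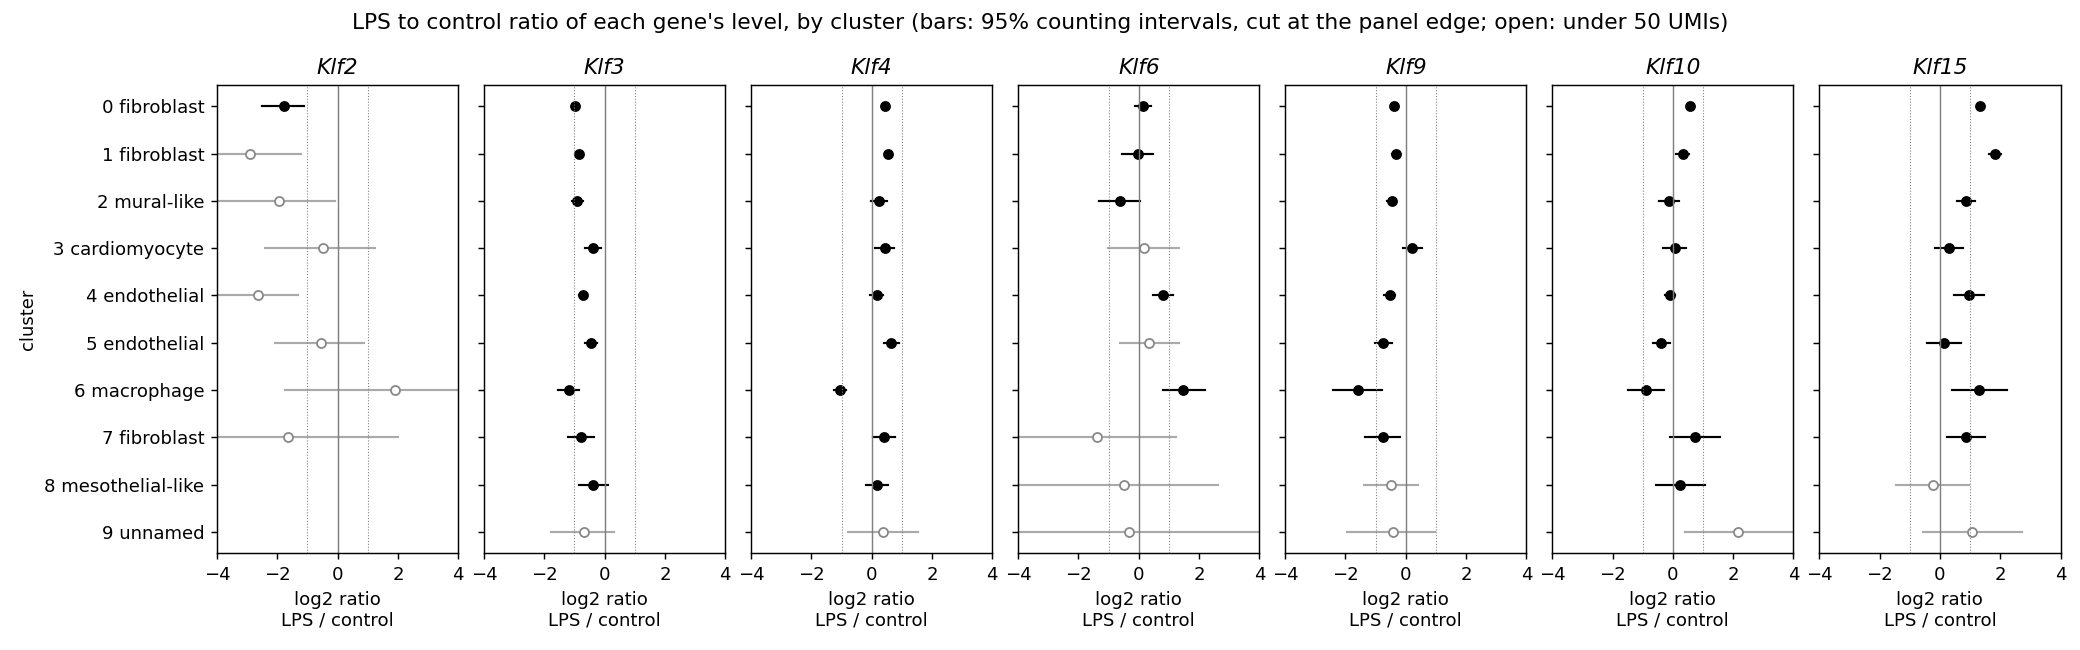
Log2 of the LPS to control ratio of each gene's level (horizontal axes, one panel per gene) in 10 clusters (vertical axis), 1 library per treatment, with 95% counting intervals that stop at the panel edge. Filled points had at least 50 UMIs over both libraries, open points fewer, and clusters with a count of 0 have no point; dotted lines mark 2-fold. *Klf4* and *Klf10* lie left of 0 in macrophages and right of 0 in fibroblast cluster 0.

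Counted over clusters, 49 of 70 pairs of a member and a cluster had at least 50 UMIs. The share of all genes past 2-fold is given beside the count of members in each cluster. In cluster 0 all 7 members met the minimum, 1 was at least 2-fold higher (*Klf15*) and 1 at least 2-fold lower (*Klf2*), where 3.44% and 9.10% of all genes that met it were. Macrophages had 6 members that met it, of which 2 were higher (*Klf6* and *Klf15*) and 3 lower (*Klf3*, *Klf4* and *Klf9*), against 4.82% and 12.3% of genes. As given above, *Klf15* in both libraries and *Klf9* in the LPS library were not told apart from background there. When ratios were divided by the median ratio of genes, which was -0.30 on the log2 scale in macrophages, only *Klf9* was still at least 2-fold lower. *Klf3* and *Klf4* then fell short of 2-fold. When cells were thinned no member was at least 2-fold higher. The median log2 ratio of genes was -0.13 in cluster 0, -0.12 in cluster 2 and within 0.1 of 0 in each other cluster.

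Cluster 1 had 6 members at the minimum, with *Klf15* higher and none lower (3.23% and 5.09% of genes). No member was past 2-fold among the 6 of cluster 2 (2.86% and 4.28% of genes), the 5 of cluster 3 (1.70% and 1.69%), the 6 of cluster 4 (2.65% and 4.08%), the 5 of cluster 5 (4.24% and 4.56%), the 5 of cluster 7 (4.70% and 3.45%) or the 3 of cluster 8 (2.48% and 1.67%). No member met the minimum in cluster 9, where 2.69% of genes were higher and 2.81% lower. The median log2 ratio of the members that met the minimum was 0.15 in cluster 0, beside -0.13 over all genes, and -0.96 in macrophages, beside -0.30.

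**Figure D3:**
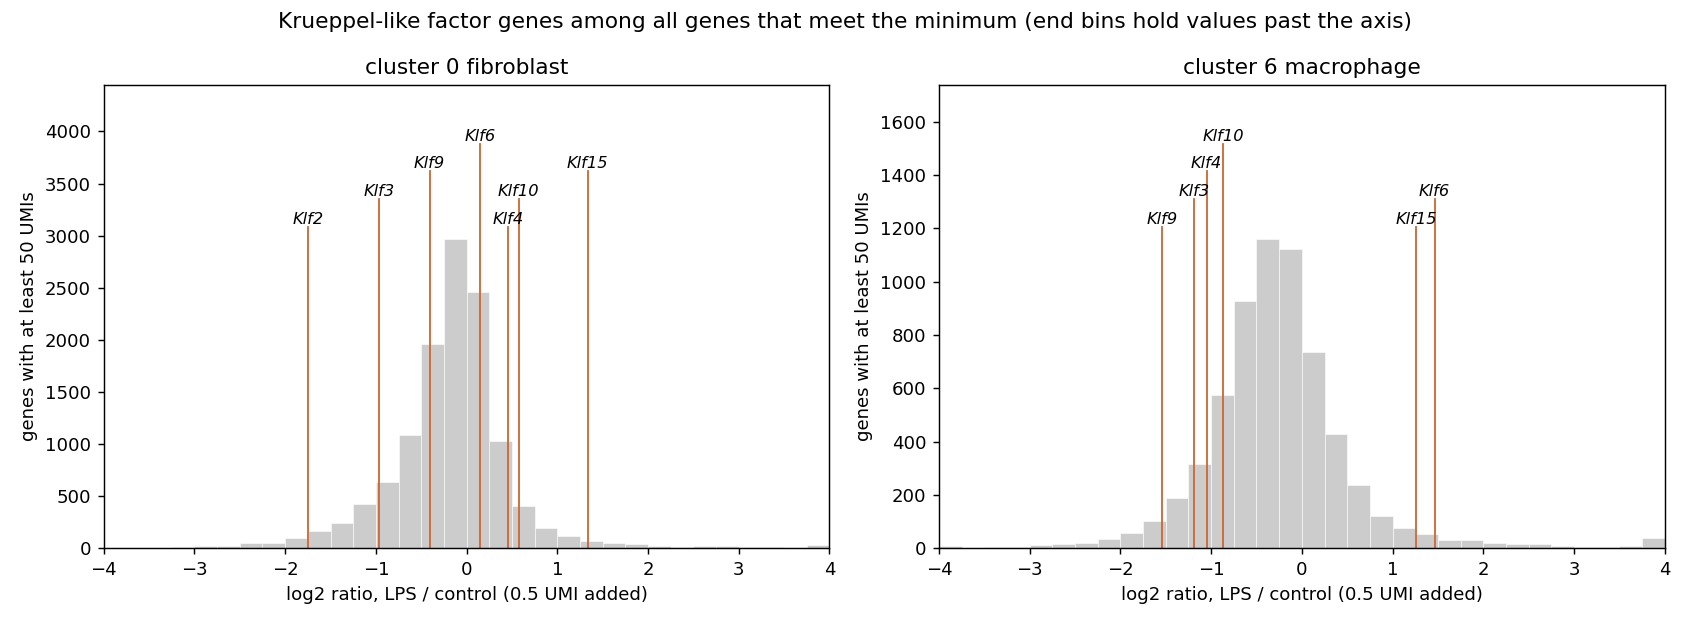
Number of genes (vertical axes, linear from 0) by log2 ratio of LPS to control (horizontal axes) in fibroblast cluster 0 (left, 12247 genes) and macrophage cluster 6 (right, 6385 genes), among genes with at least 50 UMIs, with the members marked by lines whose height has no meaning. In cluster 0, 97.8% of genes lie below *Klf15* and 9.46% below *Klf3*, and in macrophages 97.1% lie below *Klf6* and 10.9% below *Klf4*.

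Since LPS cells were shallower, the members were also compared within bins of like depth. In cluster 0 the *Klf4* ratio was 1.41, 1.36 and 1.46 in cells of 4000 to 8000, 8000 to 16000 and 16000 to 32000 UMIs (upper end not included), that of *Klf3* 0.430, 0.488 and 0.574, and that of *Klf15* 2.28, 2.33 and 3.07. Each of these intervals left out 1. In macrophages the *Klf4* ratio was 0.652 (0.516 to 0.825), 0.343 (0.272 to 0.428) and 0.451 (0.329 to 0.608) in the same bins. The directions were thus the same at each depth for these genes. *Klf6* in cluster 0, in contrast, had ratios of 0.803 (0.375 to 1.91), 0.960 (0.768 to 1.198) and 1.96 (1.30 to 2.94).

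**Figure D4:**
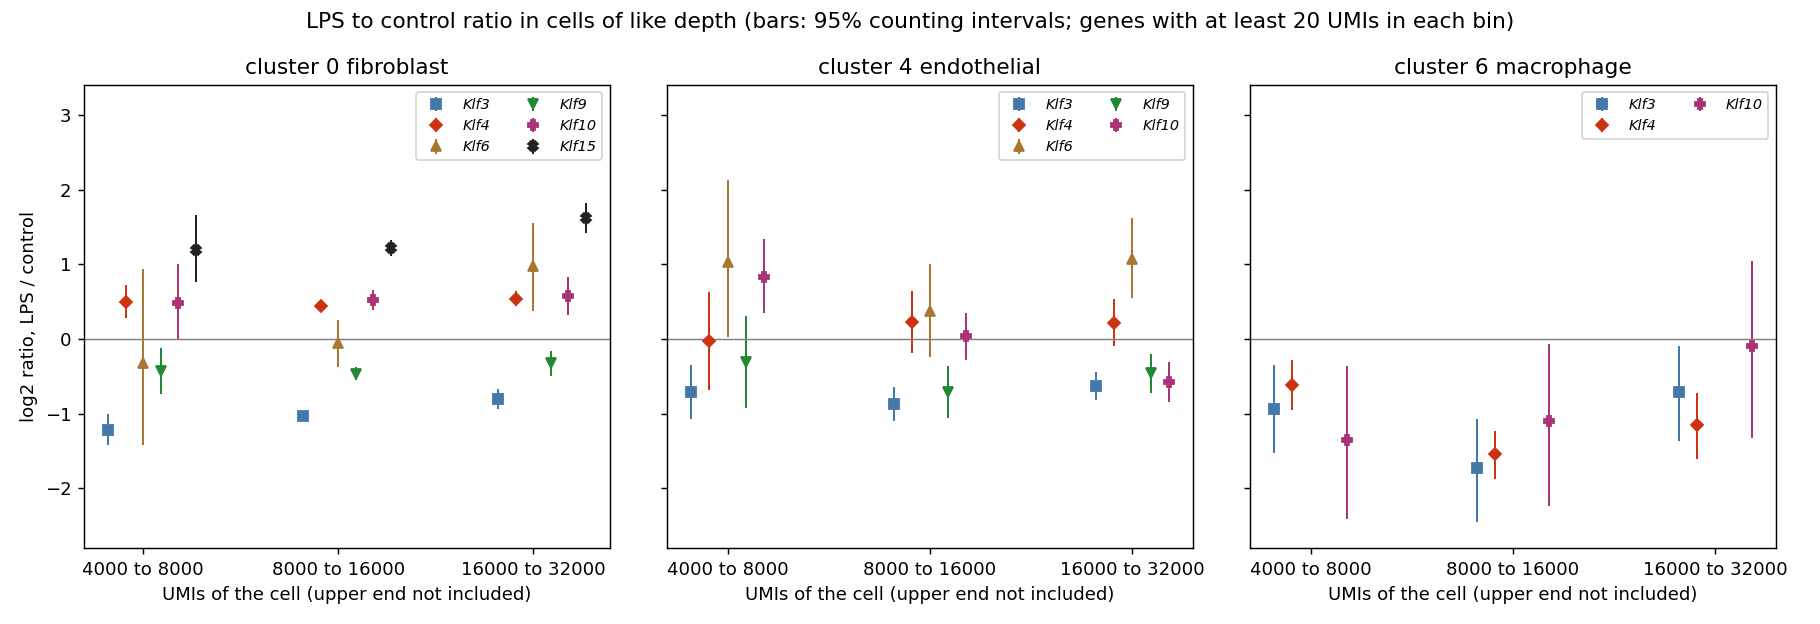
Log2 ratio of LPS to control (vertical axis) in cells of like UMI total (horizontal axes) for fibroblast cluster 0, endothelial cluster 4 and macrophage cluster 6, with 95% counting intervals, 1 library per treatment, for genes with at least 20 UMIs in each bin. *Klf4* lies above 0 at each depth in cluster 0 and below 0 at each depth in macrophages, and *Klf10* passes from above to below 0 with depth in cluster 4.

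Few cells held several members at once. After thinning, 48.4% of control and 48.1% of LPS cells of cluster 0 held no UMI of any member, 39.0% and 38.3% that of 1, and 11.1% and 11.6% those of 2. In macrophages 36.7% of control and 53.1% of LPS cells held none, and those with 2 members were 20.6% and 7.59%. Of 318 combinations of an ordered pair of members, a cluster and a library, the share of cells with the second member in cells with and without the first had separate intervals in 0. With so few UMIs per cell this does not show that members are independent. Across the 20 profiles of 10 clusters in 2 libraries, the Pearson correlation of log2(CPM + 1) between members was highest for *Klf2* and *Klf3* (0.56) and *Klf3* and *Klf9* (0.53), and lowest for *Klf4* and *Klf9* and for *Klf3* and *Klf15* (-0.55 for each pair).

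By the same measure, over 9705 genes with at least 50 UMIs in at least 3 clusters, the gene most like *Klf3* was *Slc9a3r2* (0.94), that most like *Klf10* was *Afdn* (0.92) and that most like *Klf6* was *Rab7a* (0.91), followed by *Ankrd12* (0.91) and *Hbegf* (0.90). *Tmem17* was most like *Klf9* (0.90), *Plekha4* most like *Klf15* (0.86) and *Arl6ip5* most like *Klf4* (0.79). *Card6* was most like *Klf2* (0.85), which did not itself meet the minimum. The profiles share libraries and depth, so these values are descriptions.

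The genes around the members were counted from lists of the pathway. Beside these counts, 3.44% of all genes that met the minimum were at least 2-fold higher and 9.10% lower in cluster 0. The shares were 4.82% and 12.3% in macrophages, 2.65% and 4.08% in cluster 4, and 4.24% and 4.56% in cluster 5. In the MEK5, ERK5 and MEF2 route to *Klf2* and *Klf4*, *Mef2c*, a transcription factor at its end, was at 19.6 CPM in control and 3.22 CPM in LPS macrophages, a ratio of 0.164 (0.0679 to 0.345), and at 72.2 and 46.9 CPM in endothelial cluster 4, a ratio of 0.650 (0.579 to 0.730). It was the 1 gene of this route of 4 that met the minimum to be at least 2-fold lower in macrophages, and 0 of 6 were past 2-fold in cluster 4. *Mef2a*, the route's gene with most UMIs there, was higher (1.14, 1.06 to 1.24). *Map3k3* (0.784, 0.682 to 0.900) and *Map2k5* (0.774, 0.657 to 0.911) were lower, and the other intervals of the route there included 1. Of the 5 endothelial genes that KLF2 or KLF4 is known to raise, 0 were past 2-fold in cluster 4, where the median log2 ratio was -0.43 beside -0.09 over all genes. *Thbd*, which codes for the thrombin-binding thrombomodulin, had 57.7 CPM in control and 34.1 CPM in LPS cells there (0.591, 0.516 to 0.676), and 84.0 and 24.0 CPM in cluster 5 (0.285, 0.228 to 0.354). The nitric oxide synthase *Nos3* had 90.4 and 67.3 CPM in cluster 4 (0.744, 0.673 to 0.822) and the angiopoietin receptor *Tek* 87.0 and 58.9 CPM (0.677, 0.609 to 0.751). *Cdh5*, the cadherin of endothelial junctions and the list's gene with most UMIs in both clusters, had 461 and 455 CPM in cluster 4 (0.987, 0.948 to 1.03), an interval that includes 1, and 228 and 294 CPM in cluster 5, where it was higher (1.29, 1.18 to 1.40). In cluster 5 the ratio was 0.781 (0.693 to 0.880) for *Nos3* and 0.611 (0.547 to 0.683) for *Tek*, and that of the sphingosine phosphate receptor *S1pr1*, 0.904 (0.669 to 1.22), included 1. *S1pr1* is named here, after its values were seen, to give the list whole. In cluster 4 it had 69.3 CPM in control and 62.1 CPM in LPS cells (0.897, 0.805 to 0.999), a ratio below 1. In fibroblast cluster 0 the list's median log2 ratio was lower still, at -0.87 beside -0.13 over all genes. Levels were low there, with *Nos3* at 5.55 CPM in control cells. These levels are not told apart from endothelial RNA in the background of cluster 0. The lower values there are thus read as no measure of fibroblasts.

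Of the 8 activation genes that KLF2 or KLF4 is known to hold down, 6 were at least 2-fold higher in cluster 4 and 0 lower, with a median log2 ratio of 2.76, and 6 of the 6 that met the minimum were higher in cluster 5. The adhesion molecule *Vcam1* had 2.97 CPM in control and 36.4 CPM in LPS cells of cluster 4, a ratio of 12.3 (8.57 to 18.1), and P-selectin, *Selp*, had 3.87 and 43.6 CPM, a ratio of 11.3 (8.22 to 15.8). These are also known NF-κB targets, and the cause of the difference was not tested. In the fibroblasts of cluster 0, 6 of 8 were higher as well, with *Sele* and *Selp* among them. Background from endothelial RNA was not told apart there.

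Of the corepressors that the repressor members recruit, 0 of 9 were past 2-fold in cluster 0, with *Sin3a* at 13.1 CPM in control and 17.6 CPM in LPS cells (1.35, 1.24 to 1.46) and *Hdac2* at 120.1 and 98.1 CPM (0.817, 0.793 to 0.842). Of the SP genes, whose products bind the same GC-rich sites, 0 of the 3 that met the minimum were past 2-fold there. Among the 10 other Krueppel-like factor genes, 7 met it in cluster 0, and *Klf5*, a factor known for growth of smooth muscle and fibroblasts, was the 1 that was higher, at 3.43 CPM in control and 8.05 CPM in LPS cells (2.35, 2.05 to 2.71). *Klf12* was at 0.707 and 0.407 CPM (a ratio of 0.575), *Klf7* at 13.03 and 8.13 CPM (0.624, 0.565 to 0.690) and *Klf16* at 8.24 and 13.3 CPM (1.61, 1.46 to 1.78).

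Known targets of the glucocorticoid receptor went in both directions in cluster 0, as *Klf9* and *Klf15* did. Of the 6 targets that met the minimum, 2 were at least 2-fold higher, *Fkbp5*, the receptor's chaperone (5.78 against 17.3 CPM, a ratio of 3.00, 2.71 to 3.33), and the kinase *Sgk1* (29.02 against 60.7 CPM, 2.09, 1.99 to 2.196). *Per1*, the clock gene, was at least 2-fold lower, on 48 and 17 UMIs (0.435, 0.234 to 0.769), and *Tsc22d3*, the anti-inflammatory target GILZ, was at 39.9 and 20.2 CPM (0.507, 0.477 to 0.538). In macrophages *Tsc22d3* had 88.6 CPM in control and 30.2 CPM in LPS cells (0.340, 0.260 to 0.441). Genes linked to KLF15 in metabolism gave 0 of 3 past 2-fold in cluster 0, and *Glul*, glutamine synthetase, was the 1 of 2 that was lower in macrophages, at 509 and 254 CPM (0.499, 0.455 to 0.548).

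Of 10 TGF-β genes around *Klf10*, 2 were higher and 2 lower in cluster 0, where 3.44% and 9.10% of all genes were. *Skil*, an inhibitor of Smads, was at 1.37 CPM in control and 4.18 CPM in LPS cells (3.05, 2.47 to 3.79). The ligand *Tgfb3* was at 23.3 and 4.51 CPM (0.194, 0.172 to 0.218) and the receptor *Tgfbr2* at 7.67 and 3.01 CPM (0.392, 0.336 to 0.457). Early response genes gave 3 of 12 higher in cluster 0, *Atf3* (4.54, 3.76 to 5.52), *Ier3* (3.29, 3.21 to 3.37) and *Btg2* (2.28, 2.14 to 2.43), and 1 lower, *Fos*, at 51.7 and 15.1 CPM (0.292, 0.273 to 0.312). In macrophages 5 of 10 were higher and 2 lower. As a check of the treatment, 7 of 7 LPS response genes were at least 2-fold higher in cluster 0. In macrophages 6 of the 6 that met the minimum were, and *Il1b* had 38.2 CPM in control and 7919 CPM in LPS cells. LPS cells of cluster 0 had 23.5 CPM of *Il1b* and 0.719 CPM of *Tnf*, the latter at 47.1 CPM in LPS macrophages. These 2 genes are not told apart from macrophage RNA in the background of cluster 0.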

How the data were processed

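Heart cells of 1 saline and 1 LPS culture were measured, with 1 library each. The deposited values are raw UMI counts per gene and cell, made by the authors with Cell Ranger 2.2.0 and clustered with Seurat 2.3.4 (RunCCA, FindClusters at a resolution of 0.5), per the labels and the methods; the genome build is not given in the sources used here. UMIs were summed per cluster and library and divided by the cluster's total in Python 3.11.15 (numpy 2.4.6, scipy 1.17.1, pandas 2.3.3). The 2 control and 8 LPS cells without a cluster were left out, and no other filter was set on cells. Doublets were not called, and leaving out the 8% deepest cells was an alternative. A fold was counted past 2 for genes with at least 50 UMIs in the cluster over both libraries, and 0.5 UMI was added for log2 ratios. Ratios of ratios have normal intervals on the log scale. Thinning drew 3000 UMIs per cell and left out cells with fewer, 79 in the LPS and 0 in the control library. With simulated data that held counting error only, a 4-fold change in 199 of 12240 genes of cluster 0 was found for 100% of them. The simulation had no variation between libraries or cells, so it checks the code and not the fold calls of the data. Genes of a list were named by the 4 largest absolute log2 ratios per cluster, or by level. The members and lists were chosen with earlier results of these data known. Promoter windows are RefSeq's, GRCr8. The values of 1 gene of the lists are not reported here.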

Additional observations from a re-analysis of the deposited data

Results flagged for a closer look

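*Klf4* and *Klf10* differed in direction between cell types, with intervals of the LPS to control ratio on opposite sides of 1. The difference rests on 1 library per treatment and was not tested beyond counting error. For *Klf4* the ratio was 0.483 in the macrophages of cluster 6, against 1.37, 1.47 and 1.33 in the fibroblast clusters 0, 1 and 7, 1.56 in endothelial cluster 5 and 1.35 in cluster 3, where its level was that of the fibroblast markers. For *Klf10* the ratio was 0.766 in endothelial cluster 5 and 0.543 in macrophages, against 1.49 and 1.25 in the fibroblast clusters 0 and 1. Beside these values, LPS macrophages had a median of 6900 UMIs and control macrophages 8846. Within bins of 4000 to 8000, 8000 to 16000 and 16000 to 32000 UMIs the macrophage ratio of *Klf10* was 0.391, 0.468 and 0.940. The interval of the last, 0.399 to 2.05, included 1. Thinned, 8.54% of control and 5.17% of LPS macrophages held a *Klf10* UMI, and the interval of the difference, -7.87 to 1.02 percentage points, included 0. The macrophage ratio of *Klf4* was below 1 in each bin.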

How the results depend on the processing

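No paired analysis was possible because there is a single library for each treatment. Over all cells the log2 ratios of LPS to control kept their sign in all alternatives run. They were -0.87 for *Klf3*, -0.74 after division by the median ratio of genes, -0.92 in cells thinned to 3000 UMIs and -0.93 in cells of 4000 to 12000 UMIs, a range of depth chosen after seeing the data. Under the same 3 alternatives, where they moved the value past its counting interval, *Klf9* went from -0.41 to -0.28, -0.32 and -0.55, and *Klf15* from 1.30 to 1.43, 1.15 and 1.18, with 1.204 for the mean of each cell's CPM. *Klf4* went from 0.38 to 0.51 with the median ratio and 0.47 at 4000 to 12000 UMIs, and *Klf6* from 0.36 to 0.18 when thinned and 0.094 at that depth. *Klf10* went from 0.28 to 0.41 with the median ratio and 0.41 without cells led by another class's markers. The pairs of a member and a cluster at least 2-fold higher numbered 4, but 2 when thinned, 10 at a fold of 1.5 and 7 with no minimum. Those at least 2-fold lower numbered 4, but 2 with the median ratio, 1 when thinned, 13 at a fold of 1.5 and 10 with no minimum. In cluster 0 the 1 lower member was lost when thinned and joined by another, 2 in all, at a fold of 1.5. In macrophages the 2 higher members were 0 when thinned and 1 without the deepest 8% of cells, without cells led by other markers or at 4000 to 12000 UMIs. The 3 lower members there were 1 with the median ratio, *Klf9*, and 1 when thinned. Thinning leaves fewer UMIs, so fewer members meet the minimum, and the cause of the other changes was not tested. Of 392 log2 ratios within clusters under alternatives, 357 stayed within the main counting interval, 33 moved outside it, and 2 whose own interval left out 0 changed sign, both when thinned: *Klf4* in cluster 3 from 0.43 to -0.042 and *Klf9* in cluster 7 from -0.76 to 0.58. Leaving out cells led by another class's markers kept 293 of 723 control and 544 of 823 LPS cells of cluster 4. In endothelial cluster 5 it kept 83 of 350 control and 198 of 443 LPS cells. Ratios whose interval included 0 also crossed it, among them *Klf10* in cluster 4, from -0.10 to 0.60 at 4000 to 12000 UMIs. Over all cells the UMIs behind the ratios were fewest for *Klf2*, 199 control and 51 LPS, and next for *Klf6*, 581 and 625.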
